A study of Homo sapiens with 4 samples.

Results

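The first 10 Mb of chromosome 19 is the short-arm end of a small, gene-rich human chromosome. Its open chromatin was examined with and without supplied FOXD2 in HCT116, a widely used line grown from a human colorectal carcinoma. The members are merged open regions whose midpoint lies on chromosome 19 below 10 Mb of the hg38 build. They number 1280 of the 122856 regions found on chromosomes 1 to 22 and X, or 1.04%. The stretch also holds 283 of 19839 protein-coding genes (1.43%), which is 28.3 genes and 128 open regions per Mb. The stretch was chosen because earlier counts of gained and lost regions on this chromosome were known, so those counts and every other measure of FOXD2 against control below are descriptions without a test.

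Stable HCT116 cells had been made with pSin lentivirus. The control group carried the empty vector (2 libraries) and the FOXD2 group carried the same vector with the FOXD2 coding sequence (2 libraries). Both groups had been selected with puromycin, so transduction and the drug are common to them. Whether each group is 1 polyclonal pool or a clone, and whether the 2 libraries of a group come from separate cultures, is not given in these sources, so their spread may be technical. Open chromatin was read by ATAC-seq, where Tn5 transposase inserts sequencing adapters into accessible DNA. The question was where accessibility differs when FOXD2 is supplied.

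FOXD2 belongs to the forkhead family of transcription factors, which bind DNA through a winged-helix domain at sites related to TGTTTAC. Open regions at gene starts are mostly promoters and tend to be shared between cell states, whereas those inside and between genes include enhancers, which vary more. Chromosome 19 carries many short genes, GC-rich promoters and clusters of KRAB zinc finger genes, which encode repressors of transcription.

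Gained regions are those with a peak in the 2 FOXD2 libraries and in no control library, lost regions the reverse, and shared regions those with a peak in all 4. A gene end is the 1000 bp to either side of either end of a gene. Strength was read as the percentile of a peak's −log10 q, the significance given by the authors' peak caller, within its own list.

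Of the 85 regions gained or lost, 5 lay at the 5′ end of a gene whose strand is known, where RefSeq gives the sequence of the start. Printed here are the starts of MYDGF, beside the only gained region at a gene end, of SMIM24, beside the strongest lost one, and of CLEC4M, 1 of the 2 genes with a gene-end peak in both controls and in neither FOXD2 library. ZNF57, chosen after its values were seen, has the only annotated start window that a gained region overlapped. That start lies inside the gene, and the region at the gene's 5′ end was shared. MYDGF encodes a secreted growth factor, SMIM24 a small membrane protein, CLEC4M a C-type lectin of endothelial cells, and ZNF57 a KRAB zinc finger protein. Each sequence runs 5′ to 3′ from 250 bp before to 50 bp after the annotated start (RefSeq, GRCh38.p14). Capitals mark GGGCGGG, the box bound by SP and KLF factors, on either strand.
MYDGF start, chr19:4670293-4670592, minus strand: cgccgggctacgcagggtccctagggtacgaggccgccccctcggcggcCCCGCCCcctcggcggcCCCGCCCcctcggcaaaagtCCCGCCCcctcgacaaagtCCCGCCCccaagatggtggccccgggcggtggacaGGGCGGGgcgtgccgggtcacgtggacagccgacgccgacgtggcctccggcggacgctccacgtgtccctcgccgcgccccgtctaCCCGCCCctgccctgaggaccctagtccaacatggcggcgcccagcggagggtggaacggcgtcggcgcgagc
ZNF57 start, chr19:2906858-2907157, plus strand: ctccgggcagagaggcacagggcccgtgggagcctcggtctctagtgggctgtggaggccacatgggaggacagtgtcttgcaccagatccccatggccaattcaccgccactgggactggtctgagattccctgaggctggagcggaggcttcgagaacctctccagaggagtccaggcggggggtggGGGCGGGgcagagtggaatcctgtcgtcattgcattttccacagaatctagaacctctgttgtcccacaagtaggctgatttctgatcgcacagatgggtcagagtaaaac
SMIM24 start, chr19:3480476-3480775, minus strand: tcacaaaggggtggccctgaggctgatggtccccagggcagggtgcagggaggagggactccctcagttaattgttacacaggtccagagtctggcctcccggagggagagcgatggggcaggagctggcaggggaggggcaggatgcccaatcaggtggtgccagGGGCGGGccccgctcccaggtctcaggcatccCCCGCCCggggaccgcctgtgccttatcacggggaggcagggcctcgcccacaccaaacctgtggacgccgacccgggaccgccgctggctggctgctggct
CLEC4M start, chr19:7762993-7763292, plus strand: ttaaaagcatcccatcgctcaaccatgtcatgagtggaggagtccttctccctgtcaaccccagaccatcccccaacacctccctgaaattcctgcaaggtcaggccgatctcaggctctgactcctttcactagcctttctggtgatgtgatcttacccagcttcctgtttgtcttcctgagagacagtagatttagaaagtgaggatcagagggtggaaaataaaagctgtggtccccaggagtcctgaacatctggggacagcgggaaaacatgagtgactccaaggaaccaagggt
The MYDGF window held 6 matches to the box, SMIM24 2, ZNF57 1 and CLEC4M 0. Their GC content ran from 77.3% in MYDGF through 69.3% and 59.3% to 50.7% in CLEC4M, in the same order. None of the 4 windows held the forkhead motifs TGTTTAC or TGTTTGC, the AP-1 motif TGANTCA or the ETS motif CCGGAAG on either strand, which says only that these letters are not in these windows.

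Over the 297 annotated start windows of the first 10 Mb, which belong to 239 genes, 55.6% held GGGCGGG, against 42.4% of 22132 windows genome-wide. TGTTTAC was in 1.35% against 2.85%, TGTTTGC in 2.69% against 3.4%, TGANTCA in 4.38% against 6.15%, and CCGGAAG in 15.2% against 12.8%. The median GC content of these windows was 66.3%, against 62.3% genome-wide, and the motif shares were not adjusted for it. A peak overlapped the window in all 4 libraries at 187 starts (63.0%), and in no library at 73. Of the starts open in all 4 libraries 67.9% held GGGCGGG (58.9% genome-wide), and of those open in none 23.3% did (14.9% genome-wide). The contrast between open and closed starts is thus not particular to this stretch.

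The distal short arm lost more regions than it gained. FOXD2 libraries shared 24 regions that neither control had, or 1.88% of the 1280, against 3.89% of all merged regions. Control libraries shared 61 regions that neither FOXD2 library had, or 4.77%, against 3.87%. The gained share lay further from its background than the lost share did. The next stretch, 10 to 20 Mb, had 29 gained (2.49%) and 46 lost (3.95%) among 1165 regions. Chromosome 19 beyond 20 Mb had 62 gained (2.3%) and 92 lost (3.41%) among 2694. The low gained share was therefore common to the whole chromosome. Of 284 windows of 10 Mb with at least 100 regions, 11 had a lower gained share than the first 10 Mb, 64 had a higher lost share and 0 held more regions.

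The number of peaks called per library moved with these counts. Of the 1280 regions, control replicate 1 had a peak in 928 (72.5%), control replicate 2 in 834 (65.2%), FOXD2 replicate 1 in 899 (70.2%) and FOXD2 replicate 2 in 747 (58.4%). FOXD2 replicate 2 was the lowest and the groups overlapped. The same library was the lowest genome-wide, at 50.8% of regions against 56.8% to 65.6% in the other three. Without FOXD2 replicate 2 the balance turned, to 158 regions gained and 79 lost (12.9% and 6.47%). The genome-wide shares then were 19.5% and 5.93%, so the gained share was still below its background and the lost share above it. In this setting a gained region needs a peak in 1 library and a lost one in 2, so gained counts rise by construction. When all lists were cut to the length of the shortest, 26 regions were gained (2.34%, against 4.32% genome-wide) and 41 lost (3.69%, against 3.86%), so that the lost share no longer exceeded the background. Leaving out either control library also put the lost share below the background, at 12.2% against 14.4% without replicate 1 and 16.1% against 17% without replicate 2. In all 9 alternatives the gained share stayed below the genome-wide share. Fewer open sites and a shallower or noisier library cannot be told apart in these lists, since read depth is unknown.

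**Figure D1:**
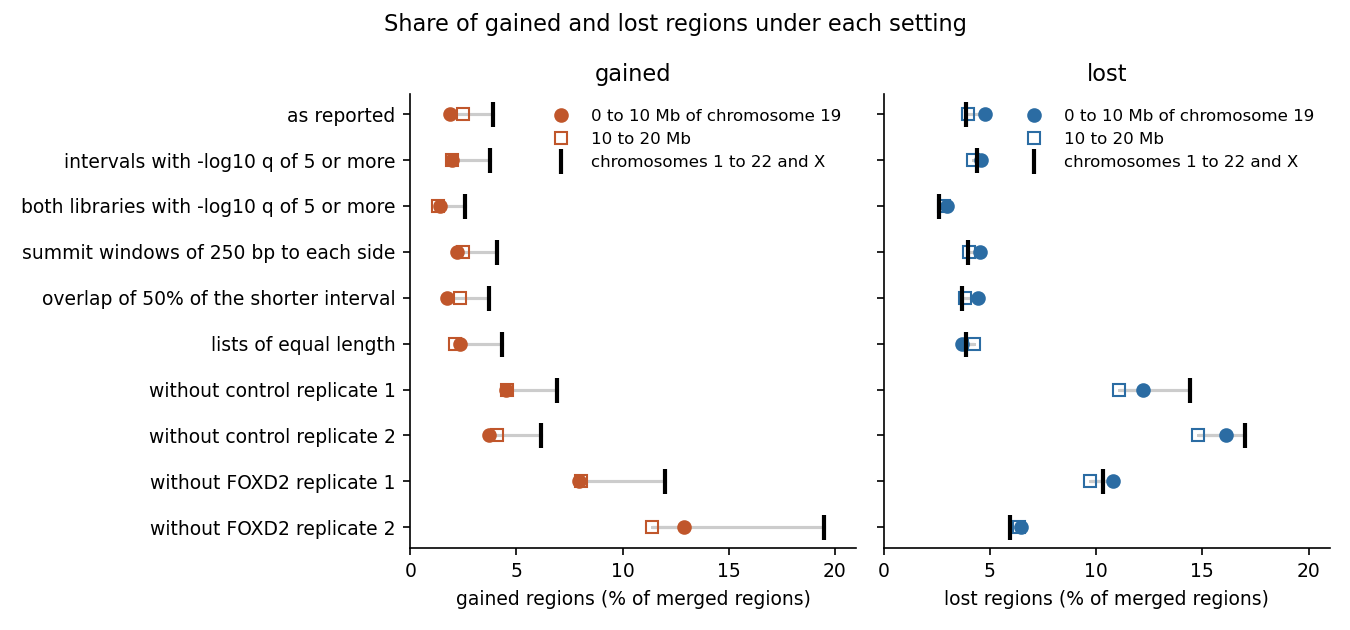
Share of merged regions that were gained (left) or lost (right), in percent, as reported and under 9 alternative settings; circles are the first 10 Mb of chromosome 19, open squares 10 to 20 Mb, and black bars chromosomes 1 to 22 and X. The circle lies left of the black bar in every row for gained regions (1.88% against 3.89% as reported), while for lost regions it lies on either side of it.

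A larger share of regions was common to all libraries here than genome-wide, though not at gene ends. All 4 libraries shared 564 regions (44.1%), against 32.5% genome-wide and 47.0% between 10 and 20 Mb. Away from gene ends the shared share was 36.6%, against 26.1% genome-wide, and at gene ends 63.9%, against 68.8%. Gene-end regions, which are mostly shared, made up 27.3% of the regions here and 14.9% genome-wide. There were 407 regions in 1 library, 182 in 2 and 127 in 3. Among the 182 regions in exactly 2 libraries, 13.2% were in the FOXD2 pair and 33.5% in the control pair. The genome-wide values were 24.3% and 24.2%, and those between 10 and 20 Mb were 17.5% and 27.7%. The pair of control replicate 1 and FOXD2 replicate 1, which crosses the groups, held 45 regions, more than the 24 of the FOXD2 pair.

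By megabase, no edge appeared at 10 Mb. Lost regions outnumbered gained ones in 7 of the 10 bins of the first 10 Mb, gained ones in 2, and 1 bin was equal. From 10 to 20 Mb the counts of bins were the same, 7, 2 and 1. Bin 5 to 6 Mb, around the fucosyltransferase cluster, PTPRS and SAFB, had the most changes, 6 gained and 11 lost of 120 regions. Bin 3 to 4 Mb, with GNA15, NFIC, SMIM24 and PIP5K1C, had 2 gained and 10 lost of 180. Bin 8 to 9 Mb, with NFILZ and MUC16, had 0 gained and 8 lost of 100. Against this, bin 2 to 3 Mb, with GNG7, MKNK2 and ZNF57, had 4 gained and 1 lost of 149. Bin 9 to 10 Mb, which holds a zinc finger cluster, had 49 regions, 2 gained and 1 lost, and its neighbour from 10 to 11 Mb had 158, 7 and 5. Just inside the boundary lay 3 regions in COL5A3, a collagen gene, and just outside it 3 more in the same gene, none of them gained or lost. Of these, the shared region inside had −log10 q of 9.06 and 7.78 in the controls and 10.1 and 7.34 with FOXD2, and the shared one outside 9.90, 11.9, 5.87 and 9.09 in the same order. The strongest of the 6 was outside, with 21.7 and 20.3 in the controls, 8.14 in FOXD2 replicate 1 and no peak in FOXD2 replicate 2. The other 3 were each in 1 or 2 libraries, with values from 4.58 to 7.06.

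**Figure D2:**
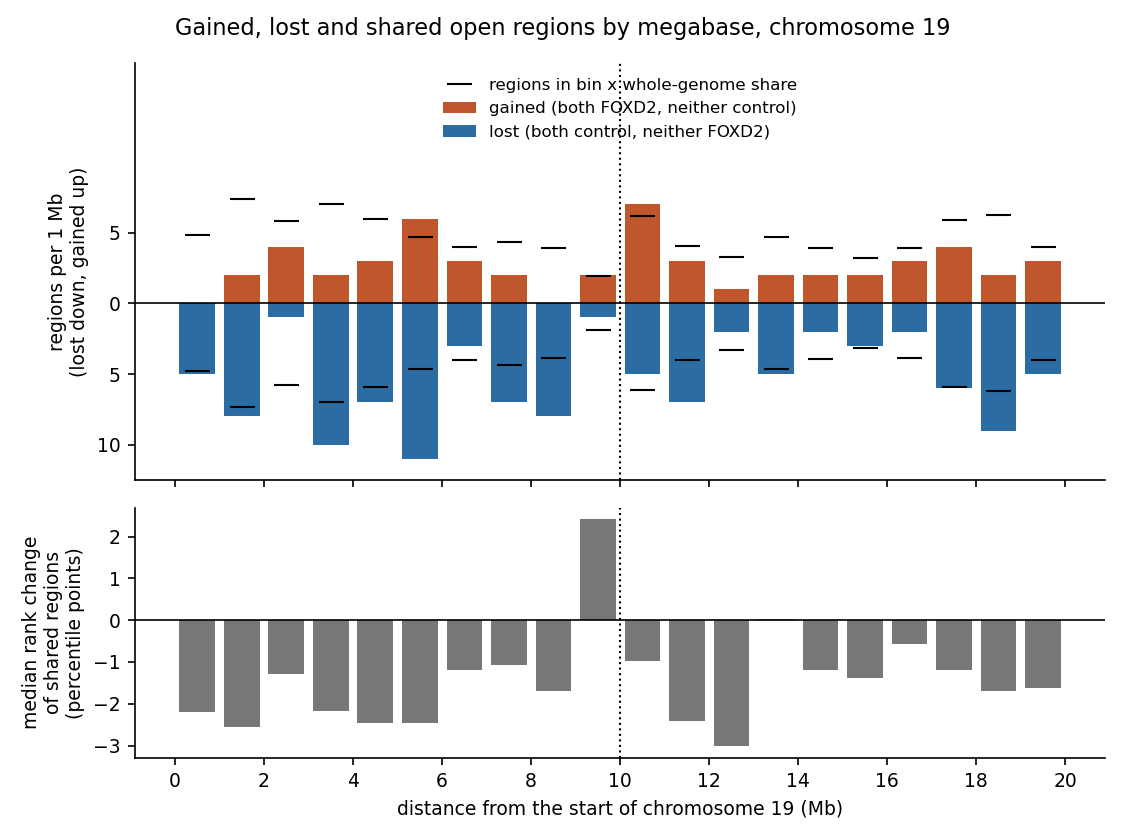
Top: regions gained (up) and lost (down) per 1 Mb over the first 20 Mb of chromosome 19, with black ticks at the number the genome-wide share would give. Bottom: median rank change of shared regions, FOXD2 minus control, in percentile points. The dotted line marks 10 Mb; on each side of it 7 of 10 bins have more lost than gained regions, and 9 of 10 have a negative rank change.

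Gene ends lost peaks more often than they gained them. Of 349 regions at gene ends, 1 was gained (0.287%, against 0.976% of regions at gene ends genome-wide) and 13 were lost (3.72%, against 2.12%). Of the 931 regions away from gene ends, 23 were gained (2.47%, against 4.40%) and 48 lost (5.16%, against 4.18%). Inside genes lay 13 gained (2.01%, against 4.7% genome-wide) and 36 lost regions (5.56%, against 4.23%). Between genes lay 10 gained (3.52%, against 4.07%) and 12 lost (4.23%, against 4.13%), both close to the genome-wide shares. Without FOXD2 replicate 2, 28 regions were gained and 16 lost at gene ends, and without FOXD2 replicate 1, 16 and 22. In either setting a gained region needs a peak in 1 FOXD2 library and a lost one in both controls. Gained counts therefore rise by construction, and whether the direction rests on a single library cannot be told from them. With lists of equal length the lost count at gene ends fell to 7.

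The gained region at a gene end lay 551 bp upstream of MYDGF, at chr19:4670893-4671203. Its −log10 q was 12.9 in FOXD2 replicate 1 and 5.88 in replicate 2, and a control peak lay 194 bp away. Among lost regions, 4 were at a 5′ end. The SMIM24 region overlapped the gene, at chr19:3479917-3480214, with 9.06 and 9.89 in the controls and a FOXD2 peak 262 bp away. The region at DAZAP1, an RNA-binding protein gene, had 8 and 9.53, with a FOXD2 peak 286 bp away. The region at NFILZ, which encodes a leucine zipper protein, had 4.36 and 9.66, with the nearest FOXD2 peak 8103 bp away. The CLEC4M region had 5.53 and 3.64 and its nearest FOXD2 peak was 16129 bp away. The lost peaks at SMIM24 and DAZAP1 thus sat beside a FOXD2 peak, and those at NFILZ and CLEC4M did not. The peak beside SMIM24 was in FOXD2 replicate 2 only, with −log10 q of 4.22. The one beside DAZAP1 belonged to a shared region, with 71.1 and 54.1 in FOXD2 replicates 1 and 2.

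The other 9 lost gene-end regions lay at AP3D1 (an adaptor complex subunit), MAP2K2 (the kinase MEK2), PRR22, GIPC3, CFD (complement factor D), FUT5 (a fucosyltransferase), PWWP3A, WDR18 (a ribosome biogenesis factor), and in CAPS, within the end windows of both CAPS and the overlapping RANBP3. The AP3D1 region, which lies inside the overlapping gene DOT1L, was the strongest of them, with −log10 q of 9.62 and 8.81 in control replicates 1 and 2. The WDR18 region was the weakest, with 2.99 and 5.35. At MAP2K2 the controls had 6.33 and 8.07, and a FOXD2 peak lay 181 bp away. At PRR22 they had 7.51 and 5.93, and the nearest FOXD2 peak was 6957 bp away.

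Counted by gene, a gene-end peak was present in all 4 libraries at 215 of 283 genes (76.0%, against 66.6% genome-wide). The number of genes with such a peak was 232, 231, 230 and 226 in control replicates 1 and 2 and FOXD2 replicates 1 and 2. In this count 0 genes had such a peak in both FOXD2 libraries alone (0.464% genome-wide). In it 2 genes, CLEC4M and PRR22, lost theirs (0.707%, against 0.842% genome-wide). By the narrower RefSeq start window, 2 of 297 windows were gained, at ZNF57 and ANKRD24, against 72 of 22132 genome-wide (0.325%). Another 2 were lost, at MAP2K2 and FBN3, against 180 genome-wide (0.813%). The gained share of windows was thus above the genome-wide share and the lost share below it, on 2 windows each. At ZNF57 the FOXD2 libraries had −log10 q of 6.82 and 5.68, and the nearest control peak was 5566 bp away in both controls. At ANKRD24, an ankyrin repeat gene, they had 5.00 and 10.5, but control replicate 1 had a peak 33 bp away. At the MAP2K2 and FBN3 windows the region as a whole was shared: FOXD2 peaks ended 6 and 51 bp short of the first window and 105 and 148 bp short of the second. FBN3 encodes a fibrillin. Of the 4 windows, ZNF57 had the clearest gap to the peaks of the other group.

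Gained and lost regions were weak within their lists. Gained regions had a median −log10 q of 7.33 in FOXD2 replicate 1 and 6.49 in replicate 2, at the 35.5 and 25.3 percentile. That of lost regions was 7.34 and 7.12 in the controls, at the 31.8 and 29.9 percentile. Genome-wide, gained regions lay at the 39.4 and 31.4 percentile and lost ones at the 31.3 and 28.6 percentile. Both libraries reached the 50 percentile in 1 gained and 3 lost regions. A −log10 q of at least 5 in both libraries held for 18 of the 24 and 38 of the 61. Genome-wide it held for 66.9% of gained and 67.4% of lost regions. A peak of the other group lay within 1000 bp of 7 gained and 22 lost regions. Gained and lost regions were narrow, with median widths of 390 and 355 bp, while shared regions had one of 790 bp. Genome-wide these medians were 386, 351 and 748 bp. A shared region joins intervals of all 4 libraries and a gained or lost one those of 2, so shared regions are wider partly by construction.

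**Figure D3:**
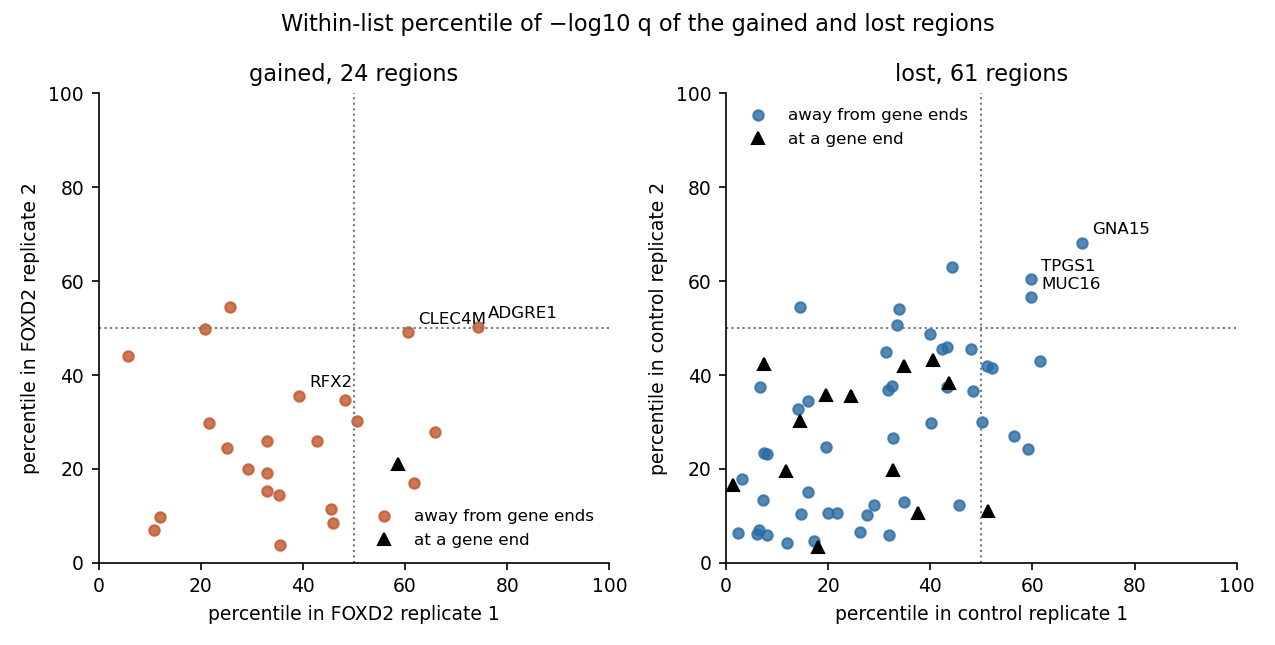
Within-list percentile of −log10 q of each gained region in the 2 FOXD2 libraries (left, 24 regions) and of each lost region in the 2 control libraries (right, 61 regions); triangles are at gene ends and dotted lines mark the 50 percentile. Most points lie below both lines; ADGRE1 is the gained point and GNA15, TPGS1 and MUC16 the lost points past both.

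The strongest gained region was between genes, 30688 bp from ADGRE1, which encodes an adhesion receptor of myeloid cells. It had −log10 q of 22 in FOXD2 replicate 1 and 11.0 in replicate 2, and fold enrichments of 9.38 and 6.85, with a control peak 259 bp away. Next came a region 14364 bp from CLEC4M, with 13.6 and 10.5 and the nearest control peak 4221 bp away. Regions inside RFX2, a transcription factor of cilium genes, and ARRDC5, an arrestin-domain gene, followed with 7.76 and 7.96 and with 9.50 and 7.75. ARRDC5 held a second gained region and no lost one. CELF5, which encodes an RNA-binding protein, also held 2, the stronger with 16.2 and 6.73. The remaining regions of the 10 strongest lay near MKNK2 (a kinase that phosphorylates the translation factor eIF4E), MBD3L2B, ZNF561 and TINCR, a gene of keratinocyte differentiation. MKNK2, at 4758 bp, had the lowest fold of them, 2.67 and 2.56.

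The strongest lost region was inside GNA15, which encodes a G protein alpha subunit. It had −log10 q of 21.8 and 21.5 in the controls, at the 69.7 and 68.2 percentile, and the nearest FOXD2 peak was 3191 bp away. A region in TPGS1, a subunit of tubulin polyglutamylase, had 15.1 and 16.3, but a FOXD2 peak lay 88 bp away. A region in MUC16, a membrane mucin, had 15.2 and 14.4, with folds of 8.46 and 7.74 and the nearest FOXD2 peak 45186 bp away. NFIC, a nuclear factor I transcription factor, accounted for 2 of the 10 strongest, with 9.82 and 17.9 inside the gene and 11.5 and 9.51 at 14231 bp from it. The others lay in SIRT6 (a histone deacetylase), SEMA6B (a semaphorin) and PIP5K1C (a phosphoinositide kinase), 18169 bp from KDM4B (a histone demethylase), and 1476 bp from SMIM24. GNA15 and MUC16 therefore stood clear of FOXD2 peaks, whereas TPGS1 and SEMA6B (113 bp) did not. In ATP8B3 a gained and a lost region lay 187 bp apart.

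By gene, 64 of the 283 were the nearest gene of a gained or lost region: 43 had lost regions only, 16 gained only and 5 both. No such count was made over all genes of the genome, so these numbers have no background beside them. At least 3 such regions lay at 3 genes. PTPRS, which encodes a receptor protein tyrosine phosphatase, had 21 regions, 2 gained and 3 lost. ARHGEF18, a guanine nucleotide exchange factor gene, had 0 gained and 3 lost of 19, all inside the gene. NFILZ had 0 gained and 3 lost of 9. The PTPRS gained regions had −log10 q of 14.3 and 5.48 inside the gene and 6.48 and 5.70 beyond its end, so the gene moved in both directions at different sites. The 3 ARHGEF18 regions were weak, with a highest −log10 q of 7.36. The strongest NFILZ region had 13.5 and 6.92.

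Shared regions ranked slightly lower with FOXD2. The median rank change, FOXD2 minus control, was −1.63 percentile points over 564 regions, with quartiles of −6.71 and 2.44. It was −1.44 between 10 and 20 Mb and −0.95 genome-wide. The per-library median percentiles were 75.7 and 75.4 in the controls, 76.5 in FOXD2 replicate 1 and 69.9 in FOXD2 replicate 2. FOXD2 replicate 2 alone was low, and without it the median change was 0.84, against 1.31 genome-wide. A percentile is relative to a library's own list, and FOXD2 replicate 2 had the shortest list, so its lower ranks are not by themselves lower strength. With lists of equal length the median change was −1.29, against −0.46 genome-wide. Ranked among shared regions only, it was −1.31, against −0.25 genome-wide. Both FOXD2 percentiles lay above both control percentiles in 71 regions (12.6%, against 15.8% genome-wide) and below them in 126 (22.3%, against 20.5%). The bin from 9 to 10 Mb differed in sign, with a median change of 2.42 over 31 shared regions.

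**Figure D4:**
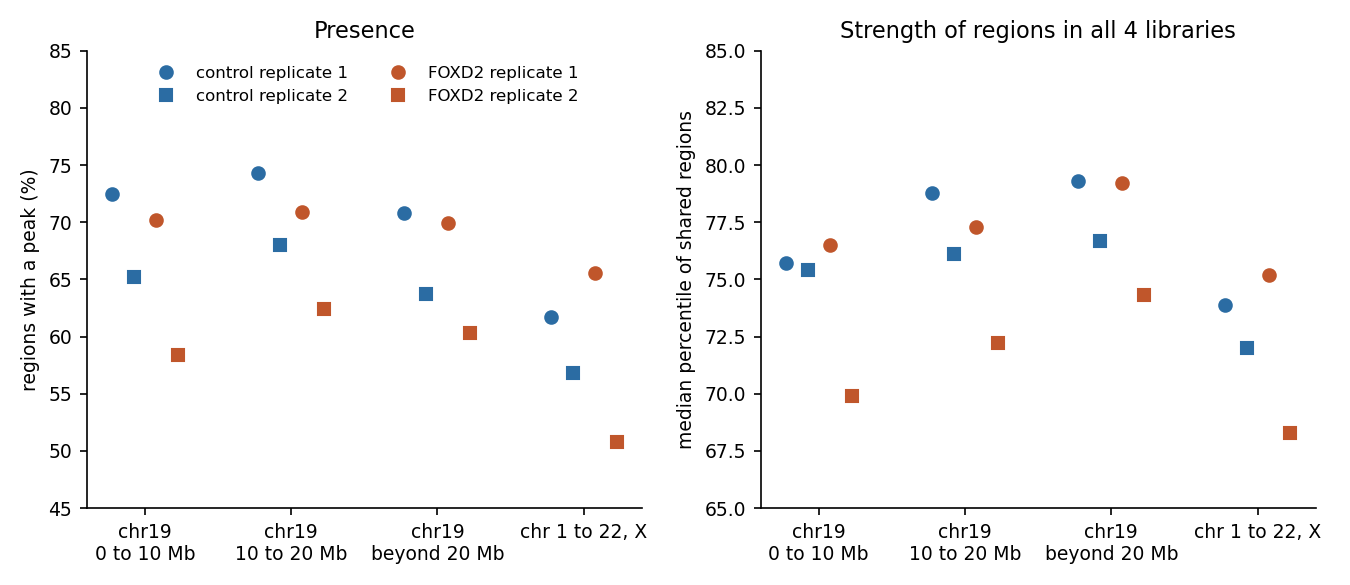
Left: percent of merged regions with a peak in each library. Right: median within-list percentile of −log10 q of the regions in all 4 libraries. Blue is control and orange FOXD2, circles replicate 1 and squares replicate 2, for the first 10 Mb, 10 to 20 Mb and the rest of chromosome 19 and for chromosomes 1 to 22 and X; both vertical axes start above 0. FOXD2 replicate 2 is the lowest point of every part in both panels (58.4% and 69.9 in the first 10 Mb).

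Split at the 61.7 and 81.7 percentile of the control mean, the weakest 168 shared regions had a median change of 0.91, the middle 191 of −2.80 and the strongest 205 of −1.28. The same strata had 1.97, −2.9 and −0.89 genome-wide, and 1.1, −4.34 and −0.98 between 10 and 20 Mb, so the order is not particular to this stretch. The control mean that sets the strata is also subtracted in the change, so the strata differ partly by construction. In the strongest stratum 17 regions were higher and 60 lower. That is 8.29% and 29.3% of them, against 11.9% and 23.7% genome-wide. Chosen as the regions high in every library, 2 lay near the top of all 4 lists. A region between genes nearest to ACSBG2, an acyl-CoA synthetase gene, lay at the 99.8, 99.6, 99.8 and 99.8 percentile in control replicates 1 and 2 and FOXD2 replicates 1 and 2. The 5′ end of MARCHF2, a ubiquitin ligase gene, lay at 99.9, 99.8, 99.9 and 99.3.

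The largest rise among shared regions was at the end of FUT3, the Lewis fucosyltransferase. Its percentiles were 12.5 and 1.26 in the controls and 49.3 and 52.9 with FOXD2 (−log10 q of 4.97, 3.11, 9.85 and 11.5). A lost region lay 144 bp from it, with 4.36 and 6.20 in the controls. A region 3701 bp from GNG7, a G protein gamma subunit gene, went from 38.7 and 31.3 to 75.7 and 70.2. UHRF1, which maintains DNA methylation, had a region inside the gene at 12.1 and 18.1 against 56.9 and 37.2. Regions near ELANE (neutrophil elastase) and at the 5′ end of EBI3 (a cytokine subunit) differed by 31.6 and 28.2 points in the mean. In these 5 regions the 2 groups did not overlap, which the choice of them fixed.

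The largest fall was inside PTPRS, at chr19:5308445-5309430. Its percentiles were 71.3 and 72.2 in the controls and 18.7 and 22 with FOXD2 (−log10 q of 23.2, 24.9, 5.14 and 6.05). The gained region of PTPRS at chr19:5314110-5314425 lay at higher coordinates, so a weaker and a gained site stood in the same gene. The 5′ end of TMPRSS9, a serine protease gene, had 58.9 and 51.3 against 29.6 and 4.66. The 5′ end of MED16, a Mediator subunit gene, had 88.5 and 90.3 against 83.7 and 21.8, so that its fall came mostly from FOXD2 replicate 2. Regions near TNFSF14, a cytokine gene, and TNFAIP8L1 differed by −37.9 and −35.7 points in the mean, and both FOXD2 libraries were low in each.

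The genes were also grouped by function, with lists chosen while earlier results were known. Near the 23 transcription factors and chromatin regulators lay 226 regions, of which 3 were gained (ONECUT3, SAFB, RFX2) and 12 lost. The lost ones were near ARID3A, TCF3, ONECUT3, DOT1L (the region named above for AP3D1), NFIC, PIAS4, ZBTB7A, SIRT6, UHRF1 and KDM4B. These are 1.33% and 5.31%, close to the 1.88% and 4.77% of all regions here (3.89% and 3.87% genome-wide). The 18 growth signalling genes had 2 gained (MKNK2, GNG7) and 7 lost of 167, or 1.2% and 4.19%. The lost ones were near GNA15, PIP5K1C, MAP2K2 and ARHGEF18. The 14 genes of the epithelial surface, adhesion and matrix had 4 gained and 8 lost of 127, or 3.15% and 6.3%. Their 55 shared regions had a median rank change of −4.49, against −1.63 for all shared regions here. SEMA6B, PTPRS, FUT3, FUT5 and MUC16 had lost regions, and PTPRS, FUT5 and OLFM2 gained ones.

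All 14 genes of the mitochondrial list had a gene-end peak in all 4 libraries, with 0 gained and 0 lost of 29 regions. All 14 RNA processing and translation genes had one too, with 2 gained (both in CELF5) and 2 lost (XAB2, HNRNPM) of 58, or 3.45% each way. The 20 zinc finger genes had 33 regions, 26 of them shared, with a median rank change of 0.10. Of the 33, 2 were gained (6.06%, ZNF561 and ZNF57) and 1 lost (3.03%, ZNF558). The 15 immune surface and secreted genes had 2 gained (ADGRE1, CLEC4M) and 3 lost (TNFSF9, CLEC4M, CCL25) of 66, or 3.03% and 4.55%. Of the 6 granule protein genes only CFD had a change, 1 lost of 15 regions (6.67%). The 7 neural genes had 2 gained (the same regions of CELF5) and 1 lost (NRTN) of 48, or 4.17% and 2.08%. The 9 olfactory receptor genes had 0 and 0 of 5. Over all regions here the shares were 1.88% and 4.77%, and each of these lists rests on few changed regions.

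Cell identity and local background were read beside these results. All 9 colon epithelium markers had a gene-end peak in at least 1 library of each group, between 8 and 9 in each library. Of 5 leukocyte markers 1 to 2 had one, with none at PTPRC or CD14. Of 5 fibroblast markers 2 to 3 did, and of 5 endothelial markers 1 to 3. The local background recovered from the authors' values had a median of 7, 6.88, 7.14 and 6.56 tags at the peaks of the first 10 Mb, against 3.48, 3.56, 3.48 and 3.78 genome-wide, in control replicates 1 and 2 and FOXD2 replicates 1 and 2. FOXD2 replicate 2 was the lowest of the 4 here and the highest genome-wide. The part of this background in the gained and lost counts was not tested.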

How the data were processed

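ATAC-seq peak lists of 4 HCT116 libraries were analysed, 1 list per library. The submitters' processing notes name hg38 and, with no role or order, MACS2 2.2.7.1, Bowtie2 2.3.4.1, cutadapt 3.4, bedtools and Picard. Their settings, and whether read ends were shifted for Tn5, are not given in these sources. Each interval carries the authors' fold enrichment at its summit (a ratio to local background), the deposited −log10 p and −log10 q, and the authors' whole-number score, which was not used. The lists held 77752 and 72796 control and 82739 and 64675 FOXD2 intervals on chromosomes 1 to 22 and X. Read depth is unknown.

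Intervals overlapping by at least 1 bp were merged (Python 3.11.15, pandas 2.3.3, numpy 2.4.6, scipy 1.17.1). Each region went to the nearest RefSeq protein-coding gene (GRCh38.p14) within 100 kb; 240 of the 283 genes had a strand, and exons, introns and UTRs were not used. No genome sequence was used, so regions away from annotated starts are given by position only. Pileup and background were solved from the fold and the −log10 p; they returned the deposited −log10 p within 0.002 for 100% of peaks under 60. The merging, the calls and this step were tested on simulated data. No test was run: the stretch was chosen on these values, and 2 libraries against 2 cannot give an exact two-sided permutation p below 0.333. The genes named are those of the 10 strongest gained and 10 strongest lost regions by the lower of the 2 percentiles, those with a gained or lost gene-end region or at least 3 such regions, the 5 largest rises and 5 largest falls of shared regions, and the members of 10 gene lists with a gained or lost region. The stretch, its members and the lists were chosen with earlier results of these data known.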

Additional observations from a re-analysis of the deposited data

How the results depend on the processing

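Presence of a called peak was the only readout of gain and loss, so a site just under the caller's threshold in 1 library counts as absent there. In the first 10 Mb, lost regions outnumbered gained ones in 9 of 10 settings, the exception being without FOXD2 replicate 2. In that setting a gained region needs a peak in 1 library and a lost one in 2. Requiring −log10 q of at least 5 in both libraries left 38 lost regions there, 7 lost at gene ends, and 15 gained between 10 and 20 Mb. The 1 gained region at a gene end became 2 with intervals of −log10 q of at least 5, 3 with summit windows of 250 bp to each side, 2 with lists of equal length, 0 with a gene-end window of 500 bp and 2 with one of 2000 bp. The 13 lost at gene ends became 7 with lists of equal length and 5 with a window of 500 bp. Leaving out 1 library at a time, which loosens the calls by construction, gave 45 to 158 gained and 79 to 195 lost regions in the first 10 Mb, 6 to 28 and 16 to 33 at gene ends, and 45 to 127 and 71 to 164 between 10 and 20 Mb. The median rank change ran from −3.65 to 0.84 in the first 10 Mb and from −3.34 to 0.44 between 10 and 20 Mb, and turned positive only without FOXD2 replicate 2 (0.84 and 0.44). No paired analysis was possible because no result comes from a test and the replicate numbers only name the libraries.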
